A study of Mus musculus with 12 samples.

Results

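TRAJ26 and TRAJ21 are 2 of the joining (J) segments of the mouse T cell receptor alpha chain, and they were followed through every productive alpha contig of 6 receptor libraries. The members were the productive TRA contigs whose J gene was annotated as TRAJ26 or TRAJ21. They lay in 627 of the 5834 cells with a productive alpha chain, 357 cells with TRAJ26 and 271 with TRAJ21, of which 1 cell had both. In all, 43 TRAJ segments occurred in productive contigs. Both segments had been picked because they are frequent among expanded clonotypes in these same libraries, so their use in expanded against 1-cell clonotypes is given as a description, with no test.

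Sorted CD45+ immune cells came from brain parenchyma and from meninges, the membranes around the brain, of C57BL/6 mice that were either 5xFADTg or NonTg. The 5xFAD line expresses mutant human amyloid precursor protein and presenilin in neurons under the Thy1 promoter, and its brain fills with amyloid plaques, as in Alzheimer's disease, while NonTg mice lack these transgenes. The labels give no age, sex or number of animals. There were 2 NonTg and 2 5xFADTg parenchyma libraries and 1 meninges library of each genotype, and because no label names an animal, p-values measure the spread between these libraries, which may be technical.

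An alpha chain is made when a V segment (TRAV) is cut and joined to a J segment (TRAJ), with bases trimmed from both ends and others added at the junction. The junction codes for CDR3, the loop of the receptor that lies over the antigen peptide, and the J segment supplies the end of that loop. A T cell that divides passes its alpha and beta sequences unchanged to its daughters, so cells with the same pair of nucleotide sequences are counted as 1 clonotype, a clone of cells.

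Listed reads per library ranged from 15827899 to 26710709 and UMIs (tags that mark single cDNA molecules) from 49997 to 128700. Cells are called paired when they carry 1 productive beta chain (TRB), no more, together with 1 or more alpha chains, and there were 5207. They formed 3108 clonotypes, 286 to 784 per library, of which 424 held 2 or more cells and are called expanded. Cell barcodes shared between libraries numbered 0 to 4 per pair of libraries, 23 over the 15 pairs, and 0 of them carried TRAJ26 or TRAJ21. No library held a gamma or delta receptor chain or an immunoglobulin contig. Chains were enriched by PCR, so this does not show that cells with such chains were absent from the tissue.

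Both segments lie on chromosome 14, plus strand, in the mouse build GRCm38 (mm10), each a single coding exon of the Tra locus in GENCODE M21. TRAJ26 (ENSMUSG00000076903.1) spans chr14:54194490-54194549 and TRAJ21 (ENSMUSG00000076908.1) spans chr14:54198790-54198846. Their starts are 4300 bases apart, with 4 other annotated TRAJ genes between them, 35 of the 60 annotated TRAJ genes upstream of TRAJ26 and 19 downstream of TRAJ21. The germline sequences are shown because they supply the end of the alpha CDR3 that all members of a segment have in common. Capitals mark the bases that code for CDR3, 29 in TRAJ26 and 26 in TRAJ21, up to and including the closing phenylalanine.

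TRAJ26 germline: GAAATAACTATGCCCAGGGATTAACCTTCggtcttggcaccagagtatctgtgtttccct

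TRAJ21 germline: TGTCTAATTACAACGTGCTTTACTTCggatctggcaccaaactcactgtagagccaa

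In frame, the TRAJ26 capitals code for 9 residues, NNYAQGLTF, and the TRAJ21 capitals for 8, SNYNVLYF. The junctions of the 5 clonotypes with 10 or more cells are printed next, because they set much of the share of cells, each named by its segment, its number of cells and its library. In these and all later junctions the capitals are the bases at the end that match the germline J segment without a gap (TRAJ26 or TRAJ21 in an alpha chain, the TRBJ segment in a beta chain). The lower-case bases are V segment, beta D segment or added bases.

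TRAJ26, 71 cells, 5xFADTg parenchyma 1, alpha: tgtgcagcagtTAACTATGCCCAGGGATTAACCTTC
TRAJ26, 71 cells, 5xFADTg parenchyma 1, beta: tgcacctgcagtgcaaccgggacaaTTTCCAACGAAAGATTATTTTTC
TRAJ26, 34 cells, NonTg parenchyma 1, alpha: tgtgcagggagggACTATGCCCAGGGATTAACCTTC
TRAJ26, 34 cells, NonTg parenchyma 1, beta: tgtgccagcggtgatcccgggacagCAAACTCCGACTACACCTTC
TRAJ26, 10 cells, NonTg parenchyma 2, alpha: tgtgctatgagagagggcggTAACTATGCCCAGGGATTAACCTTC
TRAJ26, 10 cells, NonTg parenchyma 2, beta: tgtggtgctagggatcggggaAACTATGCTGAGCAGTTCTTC
TRAJ21, 60 cells, 5xFADTg parenchyma 2, alpha: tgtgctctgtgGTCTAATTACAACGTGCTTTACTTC
TRAJ21, 60 cells, 5xFADTg parenchyma 2, beta: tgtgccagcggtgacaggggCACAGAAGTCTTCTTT
TRAJ21, 38 cells, 5xFADTg parenchyma 1, alpha: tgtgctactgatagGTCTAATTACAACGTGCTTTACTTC
TRAJ21, 38 cells, 5xFADTg parenchyma 1, beta: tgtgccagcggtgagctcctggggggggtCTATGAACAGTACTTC

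The 2 TRAJ21 alpha chains keep the same 25 of 26 germline bases, while the TRAJ26 chains keep 25, 23 and 25 of 29. No TRBV and TRBJ pair occurs more than once among the 5 beta chains.

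Of the 632 productive member contigs, 535 (84.7%) were the alpha chain with most UMIs in a paired cell, 303 with TRAJ26 and 232 with TRAJ21, and these enter the clonotypes. The remaining contigs were an additional alpha chain of a paired cell, or lay in cells without a productive beta chain or with 2 or more.

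TRAJ26 varied little as a share of clonotypes. It was used by 4.79% of clonotypes in NonTg parenchyma 1, 3.79% in NonTg parenchyma 2, 3.65% in 5xFADTg parenchyma 1, 4.59% in 5xFADTg parenchyma 2, 4.55% in NonTg meninges and 4.91% in 5xFADTg meninges. Counted over libraries this was 4.38% ± 0.53 (SD, n = 6), from 135 clonotypes, and the exact 95% binomial intervals of all 6 libraries overlapped. TRAJ26 ranked 4 among the 43 segments by its number of clonotypes.

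TRAJ21 was less frequent and varied more from library to library. Its share of clonotypes was 1.98% in NonTg parenchyma 1, 3.79% in NonTg parenchyma 2, 3.65% in 5xFADTg parenchyma 1, 3.06% in 5xFADTg parenchyma 2, 1.75% in NonTg meninges and 2.45% in 5xFADTg meninges, 2.78% ± 0.86 (SD, n = 6) from 90 clonotypes. The 2 meninges libraries lay below 3 of the 4 parenchyma libraries and NonTg parenchyma 1 lay between them. With 5 to 24 clonotypes per library behind each value, the 6 intervals again overlapped.

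Counted by cells, the order of libraries changed, and the largest clonotype set much of the level. TRAJ26 was in 7.06%, 3.66%, 8.79%, 3.58%, 6.30% and 5.41% of paired cells, in the same order of libraries, and its highest value came from 5xFADTg parenchyma 1, where the 71-cell clonotype held 67.0% of the TRAJ26 cells. TRAJ21 was in 1.51%, 4.57%, 6.05%, 6.26%, 2.58% and 2.16% of paired cells, and in 5xFADTg parenchyma 2 the 60-cell clonotype held 65.9% of them. With the largest clonotype of the segment taken out of each library, TRAJ26 ranged from 2.38% to 4.66% of the cells that remained and TRAJ21 from 1.04% to 3.43%. Intervals for cells are not given, since cells of 1 clone are not independent draws.

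**Figure D1:**
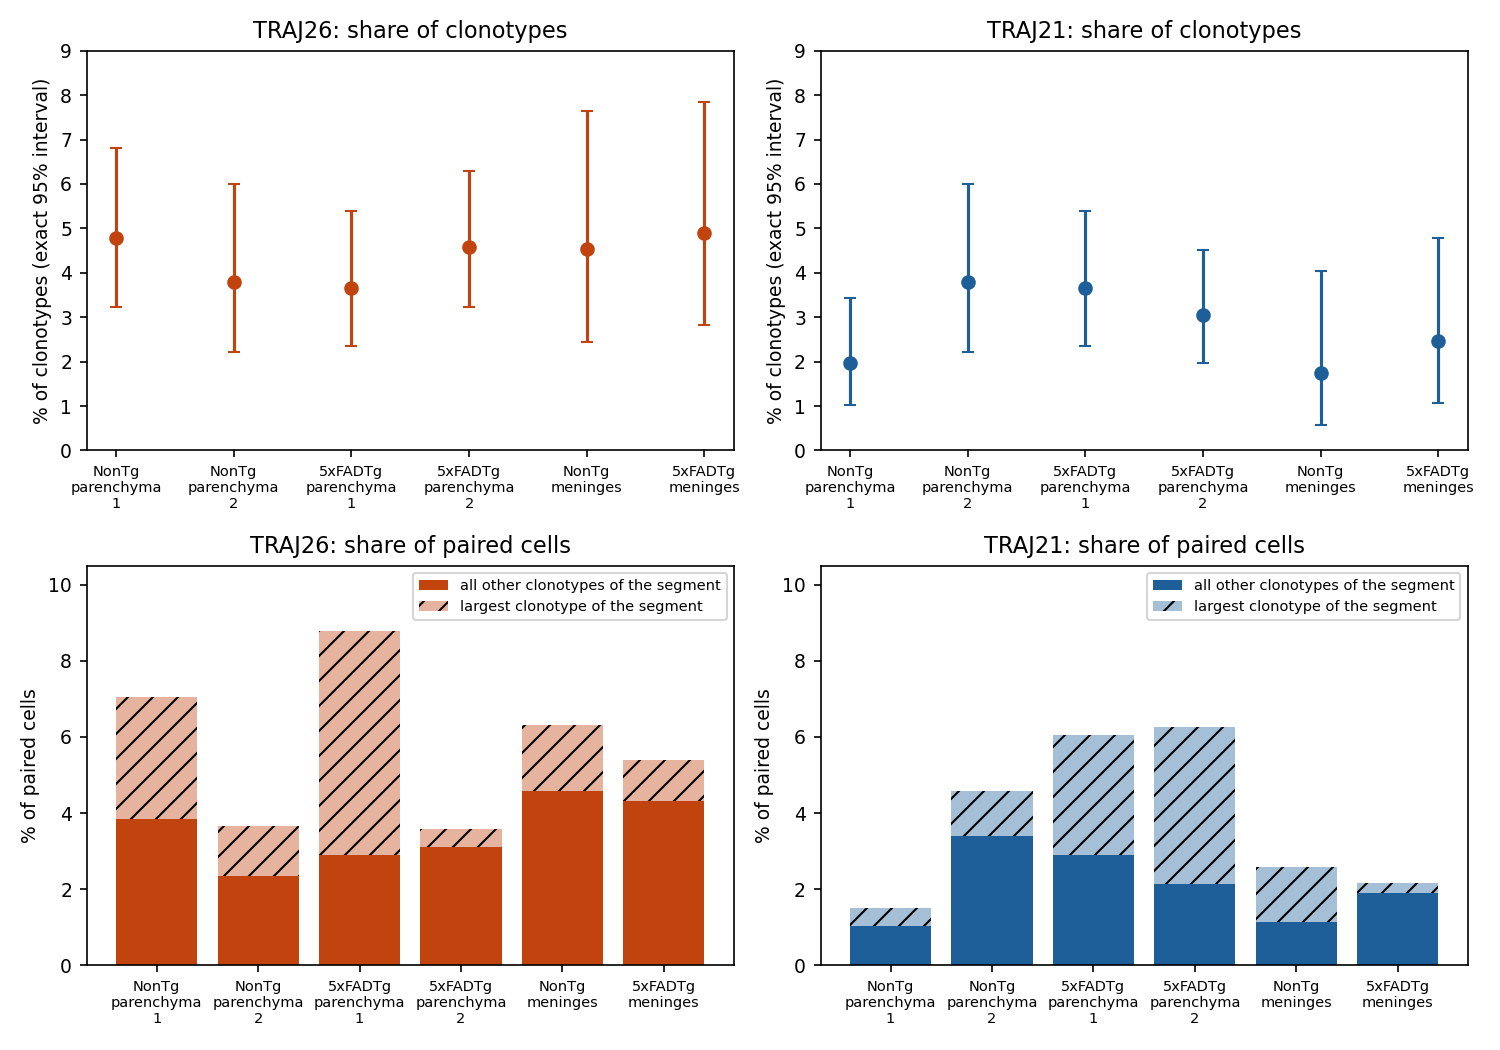
Share of TRAJ26 (left) and TRAJ21 (right) in each of the 6 libraries: the upper plots give the percent of clonotypes with exact 95% intervals, and the lower plots the percent of paired cells, with the largest clonotype of the segment hatched. TRAJ26 lies between 3.65% and 4.91% of clonotypes, while in cells it reaches 8.79% in 5xFADTg parenchyma 1 through 1 clonotype of 71 cells.

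Both segments stood high in expanded clonotypes, which is the property they were chosen for. TRAJ21 had 21 expanded clonotypes of 90 (23.3%, exact 95% interval 15.1% to 33.4%) and TRAJ26 had 30 of 135 (22.2%, 15.5% to 30.2%), beside 13.6% of all 3108 clonotypes and a median of 13.2% over the 43 segments. These intervals make no allowance for choosing the segments by this share, so their distance from 13.6% is not a test. They also count a clone once in each library that held it. The 135 TRAJ26 and 90 TRAJ21 clonotypes were 128 and 88 clones. In the order of this share TRAJ21 ranked 1 and TRAJ26 ranked 3. TRAJ24 lay between them with 7 of 31 clonotypes (22.6%), and TRAJ5 ranked 4 with 5 of 23 (21.7%), both with wider intervals that hold the values of TRAJ21 and TRAJ26. TRAJ18, the J segment of the invariant alpha chain of iNKT cells, was lowest at 4.37%.

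**Figure D2:**
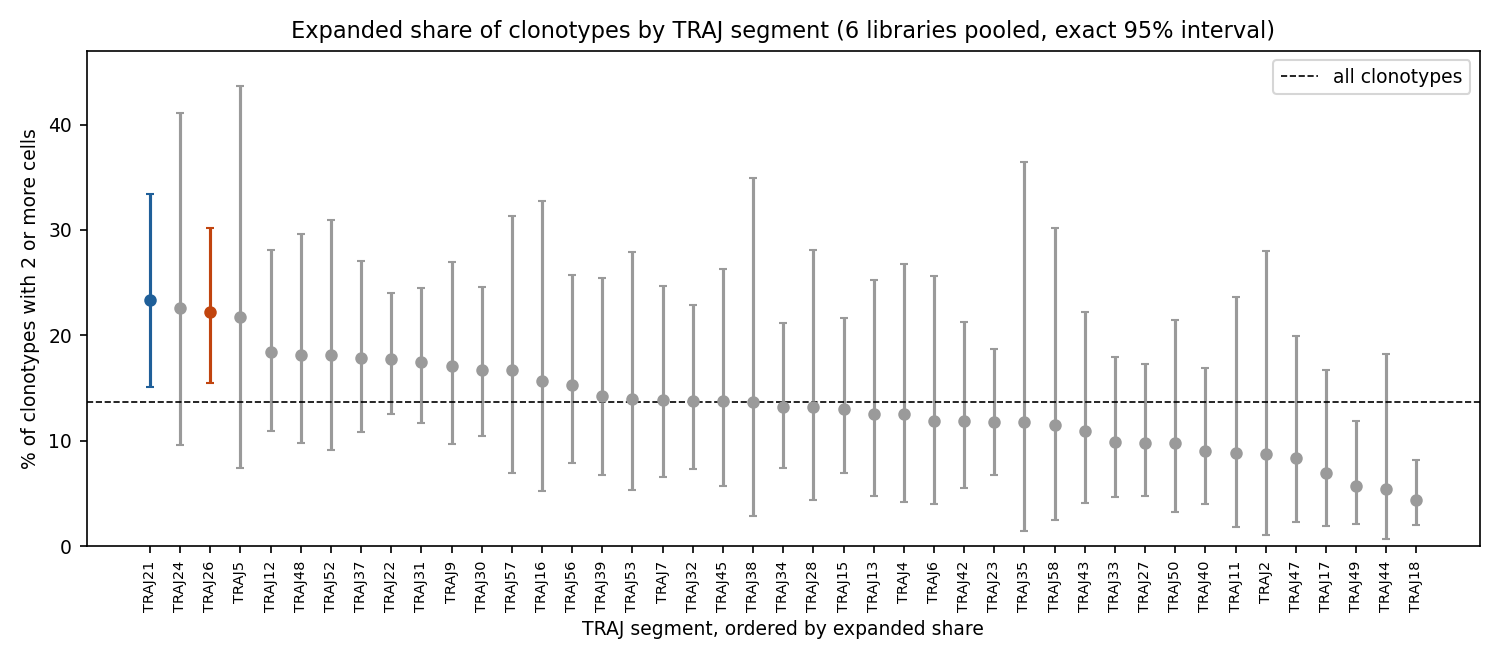
Percent of clonotypes with 2 or more cells for each of the 43 TRAJ segments, 6 libraries pooled, in falling order, with exact 95% intervals and a dashed line at 13.6% for all clonotypes. TRAJ21 (23.3%) and TRAJ26 (22.2%) lie near the left end beside TRAJ24 and TRAJ5, whose intervals are wider. No interval allows for the choice of TRAJ21 and TRAJ26 by this share.

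Taken library by library, the TRAJ26 pattern was the more even one. TRAJ26 made up 8.79%, 4.76%, 7.61%, 5.34%, 10.3% and 11.1% of the expanded clonotypes, against 4.08%, 3.63%, 3.01%, 4.44%, 3.89% and 4.55% of the 1-cell clonotypes, in the order used above. The expanded share was the higher of the pair in 6 of 6 libraries, by 4.06 percentage points ± 2.50 (SD), and TRAJ26 was the 1 segment of 43 for which this held in all 6, while TRAJ12, TRAJ22 and TRAJ31 were higher in 5. With expansion counted from 3 cells TRAJ26 was higher in 5 of 6 libraries, by 5.27 points ± 4.70 (SD). The counts behind it were small, from 2 expanded TRAJ26 clonotypes in 5xFADTg meninges to 8 in NonTg parenchyma 1. The expanded TRAJ26 clonotypes of NonTg meninges, with 6, 4 and 2 cells, were all clones also expanded in NonTg parenchyma. In 5xFADTg meninges the 4-cell clonotype was also a clone of 5xFADTg parenchyma 2, while that of 2 cells was found in 1 library. The 6 libraries are therefore not independent in this count.

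TRAJ21 split the libraries. Its share of expanded clonotypes was 1.10%, 9.52%, 6.52%, 5.34%, 3.45% and 0%, against 2.14%, 2.85%, 3.19%, 2.60%, 1.56% and 2.60% of the 1-cell clonotypes. It was higher among expanded clonotypes in 4 of 6 libraries, with a mean difference of 1.83 percentage points ± 3.30 (SD). It was lower in NonTg parenchyma 1 and 5xFADTg meninges. In NonTg meninges the 1 expanded TRAJ21 clonotype, of 5 cells, was a clone also expanded in NonTg parenchyma 2. The value of 0% stood for 0 of 18 expanded clonotypes, which allows a share of up to 16.7%, and 0 of 8 TRAJ21 clonotypes there were expanded, which allows up to 37.5%. With expansion counted from 3 cells the TRAJ21 difference was 3.45 points ± 6.27 (SD) and positive in 4 of 6 libraries. With the alpha chain counted alone, over all cells with a productive alpha contig, the TRAJ21 difference was 0.46 points and positive in 3 of 6 libraries, and that of TRAJ26 was 2.73 points and positive in 6 of 6.

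Most TRAJ26 and TRAJ21 clonotypes held 1 cell, and a few held many. Of the 135 TRAJ26 clonotypes 105 held 1 cell, 23 held 2 to 4, 4 held 5 to 9 and 3 held 10 or more, and the last 3 held 115 of the 303 cells (38.0%). Of the 90 TRAJ21 clonotypes 69 held 1 cell, 15 held 2 to 4, 4 held 5 to 9 and 2 held 10 or more, with 98 of the 232 cells (42.2%). Among clonotypes with any other TRAJ segment, those of 10 or more cells were 47 of 2883 and held 25.2% of the cells. All 5 large member clonotypes were parenchymal, as were 46 of the 47 others.

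**Figure D3:**
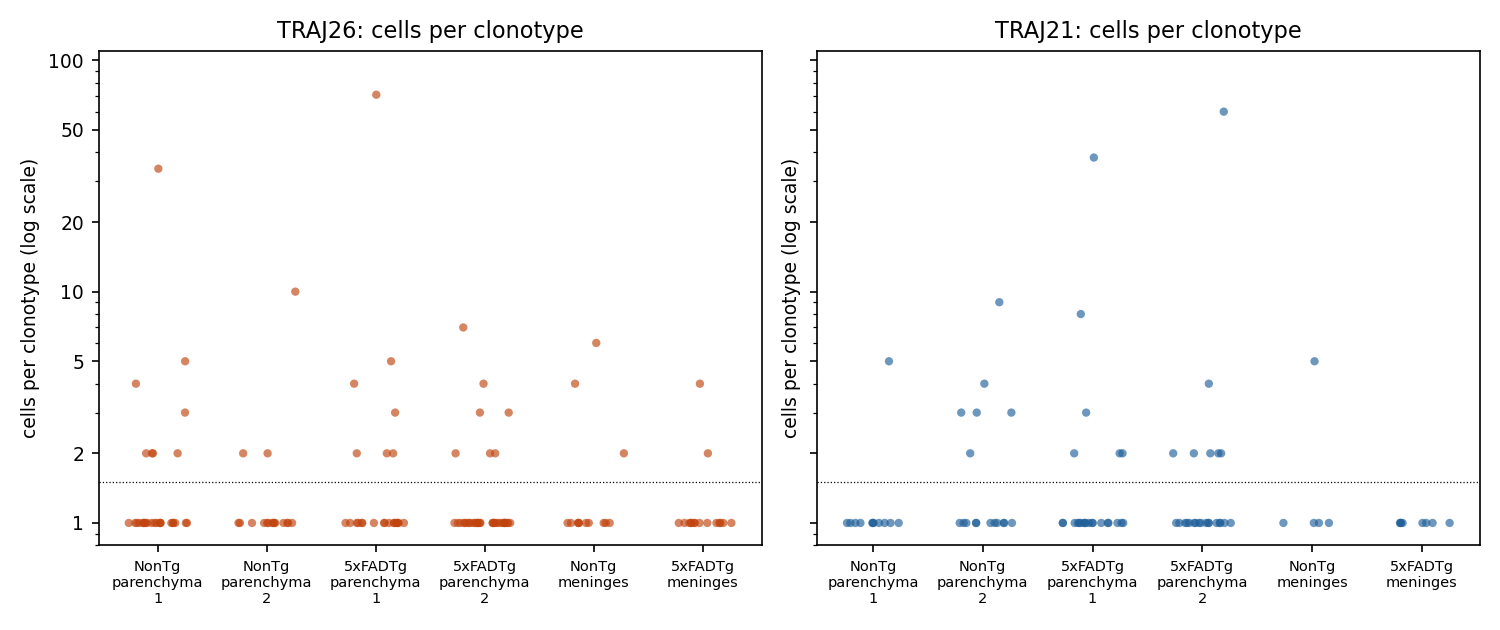
Cells per clonotype, on a log scale, for every TRAJ26 and TRAJ21 clonotype in each library, with a dotted line between 1 and 2 cells. Most points lie at 1 cell, and 5 clonotypes of 71, 34 and 10 cells (TRAJ26) and 60 and 38 cells (TRAJ21) stand above the rest, all in parenchyma.

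The largest member clonotype held 71 cells of 5xFADTg parenchyma 1 and was the most abundant of all clonotypes there, at 5.89% of paired cells. It joined TRAV7D-2 to TRAJ26 in the alpha chain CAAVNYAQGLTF and used TRBV1 with TRBJ1-4. Its beta sequence was found in 76 cells of that library, of which 5 had no alpha chain, and its alpha sequence in 77, of which 6 had no beta chain. No cell joined either chain to another partner as its main pair.

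The TRAJ26 clonotype of 34 cells in NonTg parenchyma 1 joined TRAV7D-4 in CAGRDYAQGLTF to a beta chain that the files label jointly TRBV12-2+TRBV13-2, with TRBJ1-2. It ranked 2 of that library with 3.20% of its paired cells, and the same alpha and beta nucleotide sequences recurred in 6 cells of NonTg meninges, where it ranked 1. The TRAJ26 clonotype of 10 cells in NonTg parenchyma 2 used TRAV16N with TRBV20 and TRBJ2-1 and the beta loop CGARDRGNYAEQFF, and it recurred in 4 cells of NonTg meninges.

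Both large TRAJ21 clonotypes were in 5xFADTg parenchyma and both carried the joint TRBV12-2+TRBV13-2 label. The clonotype of 60 cells in 5xFADTg parenchyma 2, 4.13% of paired cells and rank 3, joined TRAV12D-3 in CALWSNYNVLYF to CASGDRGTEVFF with TRBJ1-1. The clonotype of 38 cells in 5xFADTg parenchyma 1, 3.15% and also rank 3, joined TRAV8N-2 in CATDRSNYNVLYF to a beta chain with TRBJ2-7. Neither recurred in another library.

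The 60-cell clonotype had few alpha transcripts in each cell. Its median was 5 alpha UMIs and 8 beta UMIs per cell, whereas the other 4 large member clonotypes had median alpha UMIs of 45 to 88 and beta UMIs of 6 to 10. In the order of libraries used above, the median alpha UMIs of TRAJ21 cells were 60, 90, 39, 8, 10 and 24.5, and those of TRAJ26 cells 46, 68.5, 54, 35, 67.5 and 55, against 36 to 80 for other segments. Of the 71 cells with the beta chain of the 60-cell clonotype, 11 had no alpha chain. The part of this low count in the size of the clonotype was not tested.

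Below 10 cells, and apart from clones already named, the next largest TRAJ26 clonotypes held 7 cells in 5xFADTg parenchyma 2 (TRAV5D-4, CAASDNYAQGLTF, with TRBV31) and 5 cells each in 5xFADTg parenchyma 1 (TRAV14-2, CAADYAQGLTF, with TRBV3) and NonTg parenchyma 1 (TRAV5-1, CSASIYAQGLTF, with TRBV19). The next TRAJ21 clonotypes held 9 cells in NonTg parenchyma 2 (TRAV6-6, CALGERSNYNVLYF, with TRBV19), 8 in 5xFADTg parenchyma 1 (TRAV9N-4, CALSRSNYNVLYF, with TRBV16) and 5 each in NonTg parenchyma 1 (TRAV14N-3, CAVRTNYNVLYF, with TRBV26) and NonTg meninges (TRAV3-1, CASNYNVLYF, with TRBV14). No alpha CDR3 was shared between these clonotypes. In the 5xFADTg meninges the largest TRAJ26 clonotype had 4 cells and every TRAJ21 clonotype had 1.

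Most member clonotypes kept nearly all of the CDR3 that the J segment codes for. Of the TRAJ26 clonotypes 43 of 135 (31.9%) kept all 9 residues, 65 kept NYAQGLTF and 27 kept YAQGLTF. Of the TRAJ21 clonotypes 65 of 90 (72.2%) kept all 8 residues, 20 kept NYNVLYF, 4 kept YNVLYF and 1 kept LYF alone. At the level of bases TRAJ26 lost 3.34 ± 0.64 and TRAJ21 1.81 ± 0.74 from its J end (SD of 6 library means), and other segments 2.78 ± 0.13. No base was lost in 11.9% of TRAJ26 and 33.3% of TRAJ21 clonotypes, against 22.7% of the others.

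The expanded clonotypes spread over these classes too. Of the 30 expanded TRAJ26 clonotypes 12 kept all 9 residues, 11 kept 8 and 7 kept 7, and the 34-cell clonotype is among the last. Of the 21 expanded TRAJ21 clonotypes 17 kept all 8 residues and 4 kept 7. The median number of bases lost was 3 in both expanded and 1-cell TRAJ26 clonotypes and 1 in both kinds of TRAJ21 clonotype.

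The alpha CDR3 of both segments averaged fewer amino acids than that of other clonotypes in each of the 6 libraries. Neither difference passed the test after adjustment. With 6 libraries, no measure could pass unless most of the 10 compared reached the smallest possible p. Not passing therefore does not show that the lengths are equal. The J segment that defines each group also codes for part of this loop, 29 bases in TRAJ26 and 26 in TRAJ21. Length is therefore not independent of how the members were chosen, and germline lengths of the other segments were not compared. TRAJ26 clonotypes averaged 13.4, 13.5, 13.3, 13.2, 13.5 and 13.2 amino acids by library, all below the clonotypes with any segment other than TRAJ26 in that library. The mean difference was -0.35 amino acids ± 0.24 (SD, n = 6 libraries; below in 6 of 6), two-sided exact sign-flip permutation p = 0.03125, the smallest that 6 libraries allow, and 0.156 after Benjamini-Hochberg adjustment over the 10 measures compared. TRAJ21 clonotypes averaged 11.9, 13.2, 12.7, 13.1, 13.2 and 12.9 amino acids, again all below the clonotypes with other segments. The mean difference was -0.89 ± 0.49 (SD, n = 6; below in 6 of 6), with the same exact permutation p of 0.03125 and adjusted value of 0.156.

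Few loops were long. Among TRAJ26 clonotypes 40.0% had 14 amino acids and 28.9% had 13, while 8.89% had 15 and 0.741% had 16. Among TRAJ21 clonotypes 33.3% had 13, 30.0% had 14 and 22.2% had 12, and 2.22% had 15. TRAJ21 loops reached down to 7 amino acids, in 1 clonotype, with 5 clonotypes at 10 and 4 at 11, while the shortest TRAJ26 loop had 10. Other segments had 21.3% at 15 and 6.63% at 16.

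**Figure D4:**
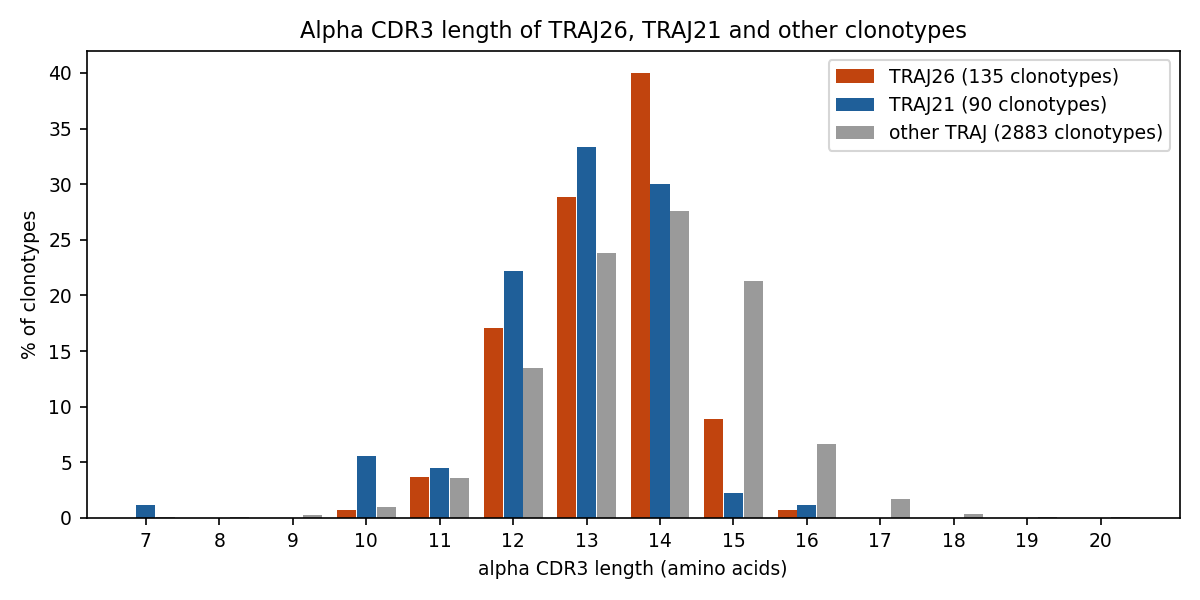
Distribution of alpha CDR3 length in amino acids, as percent of clonotypes, for TRAJ26 (135 clonotypes), TRAJ21 (90) and all other TRAJ segments (2883), 6 libraries pooled. At 15 amino acids the TRAJ26 bar stands at 8.89% and the TRAJ21 bar at 2.22%, below the 21.3% of other segments.

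The beta CDR3 of member clonotypes had about the same length as that of others, 14.1 amino acids with TRAJ26 against 14.0, and 14.3 with TRAJ21 against 14.0, as means of 6 libraries. The difference was 0.05 ± 0.18 for TRAJ26 (above in 4 of 6; exact sign-flip adjusted p = 0.742) and 0.25 ± 0.32 for TRAJ21 (above in 4 of 6; adjusted p = 0.521). Within TRAJ26, the beta loop averaged 14.9 amino acids in the 30 expanded clonotypes and 13.8 in the 105 of 1 cell. Within TRAJ21 these values were 14.1 and 14.3. They belong to the contrast that chose the segments and are not tested.

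Both segments were joined to many V segments. TRAJ26 occurred with 37 TRAV segments, counting the near-identical D and N copies of a TRAV segment as 1, since reads can fit either copy. The most frequent was TRAV16, with 13 of 135 clonotypes (9.63%, exact 95% interval 5.23% to 15.9%) against 5.38% among clonotypes with other TRAJ segments. It was followed by TRAV7-4 with 9 (6.67% against 2.25%), TRAV13-1 and TRAV3-3 with 8 each (5.93% against 3.64% and 5.55%) and TRAV14-1 with 7 (5.19% against 2.36%). The interval of TRAV7-4 began at 3.09%, above its share among the others, and the intervals of the other 4 held theirs. No allowance is made here for choosing the most frequent partners, or for clones counted in more than 1 library. By cells the TRAV7 family led, with 133 of 303 TRAJ26 cells in 19 clonotypes, 105 of them in the 71-cell and 34-cell clonotypes.

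TRAJ21 occurred with 29 TRAV segments. TRAV3-3 and TRAV8-2 had 8 of 90 clonotypes each (8.89% against 5.55% and 2.50% with other TRAJ segments), TRAV12-3 and TRAV16 had 7 each (7.78% against 3.88% and 5.38%), and TRAV12-2 had 5 (5.56% against 5.52%), level with TRAV14-3 and TRAV9-4. The TRAV8-2 interval of 3.92% to 16.8% lay above the 2.50% of other clonotypes. TRAV12-3 and TRAV8-2 held 69 and 45 of the 232 TRAJ21 cells, 60 and 38 of them in the large clonotypes. No TRAV3-3, TRAV16 or TRAV12-2 clonotype of TRAJ21 was expanded, whereas 4 of 5 with TRAV9-4 and 3 of 5 with TRAV14-3 were. These last pairs were picked out after their values were seen. All 5 with TRAV9-4 were in 5xFADTg libraries. The 1 of them not expanded, in 5xFADTg meninges, was the same clone as that of 8 cells in 5xFADTg parenchyma 1.

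On the beta side TRAJ26 was found with 20 TRBV labels and TRAJ21 with 18. TRBV3 was the most frequent partner of TRAJ26, in 21 clonotypes (15.6%, interval 9.89% to 22.8%) against 8.01% with other TRAJ segments, in all 6 libraries, and 6 of the 21 were expanded. The joint TRBV12-2+TRBV13-2 label and TRBV13-1 followed with 11 each (8.15% against 10.9% and 6.49%), then TRBV13-3 with 10 (7.41% against 7.67%) and TRBV16 with 9 (6.67% against 5.24%), level with TRBV19 and TRBV29. The 21 TRBV3 clonotypes held 31 cells, so no large clonotype lies among them.

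For TRAJ21 the joint label led with 12 of 90 clonotypes (13.3% against 10.9%) and held 108 of 232 cells, 98 of them in the 2 large clonotypes. TRBV14 and TRBV16 had 9 each (10.0% against 2.71% and 5.24%), and TRBV13-1 and TRBV19 had 8 each (8.89% against 6.49% and 6.87%), level with TRBV5. The TRBV14 interval of 4.68% to 18.1% lay above the 2.71% of other clonotypes. Again no allowance is made for choosing the most frequent partners or for clones counted in more than 1 library. No partner was tested on its own.

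**Figure D5:**
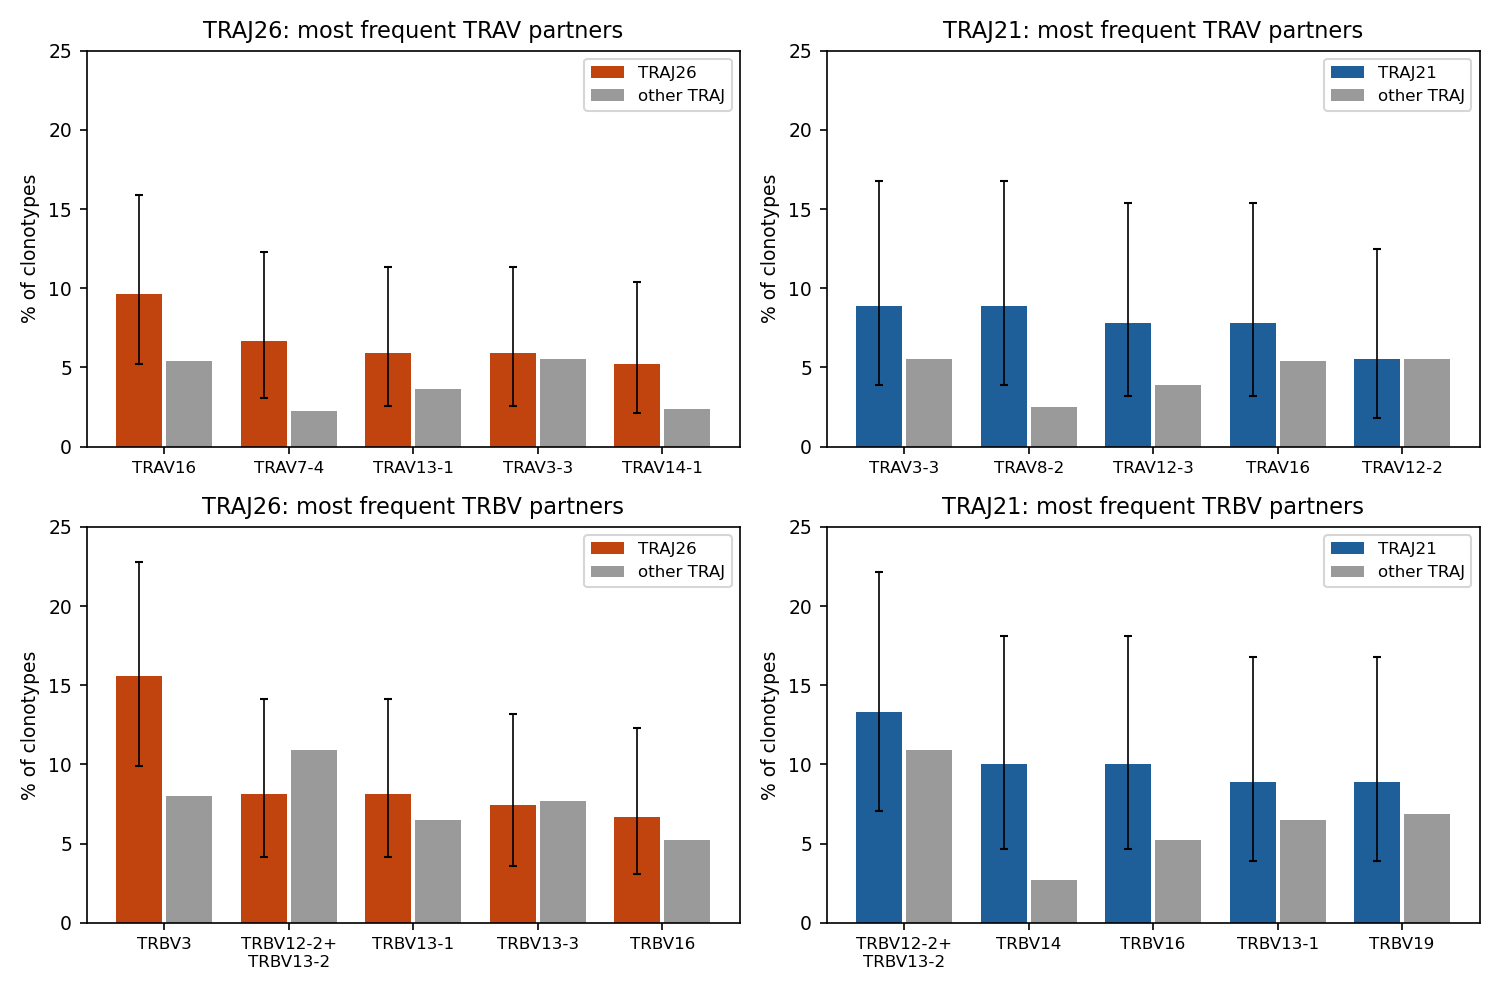
The 5 most frequent TRAV (top) and TRBV (bottom) partners of TRAJ26 (left) and TRAJ21 (right), as percent of clonotypes with exact 95% intervals, beside the share of the same partner among clonotypes with other TRAJ segments (grey). TRBV3 with TRAJ26 (15.6% against 8.01%) and TRBV14 with TRAJ21 (10.0% against 2.71%) show the widest gaps among the TRBV partners.

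Shares of 3 groups of partners were compared within each library with clonotypes of every other TRAJ segment. The same exact sign-flip test, adjusted over the 10 measures, was used, and none passed. The limit on passing given for alpha length holds here too. A TRBJ1 segment was used by 33.9% ± 4.5 (SD, n = 6) of TRAJ26 clonotypes, a difference of -0.70 points (adjusted p = 0.844), and by 36.9% ± 9.8 of TRAJ21 clonotypes, a difference of 2.39 points (0.742). The TRBV13 family, in which the joint TRBV12-2+TRBV13-2 label is counted, was used by 25.7% ± 5.0 with TRAJ26, a difference of -1.50 points (0.742), and by 26.3% ± 9.0 with TRAJ21, -0.95 points (0.844). The TRAV16 to TRAV21 families were used by 10.6% ± 3.6 with TRAJ26, 2.11 points more (0.547). With TRAJ21 they were used by 10.2% ± 6.6, 1.54 points more (0.742). D and N copies such as TRAV16N are counted in these families, so the measure does not give nearness to the J segments. The TRBV13 differences changed sign when iNKT-like receptors, in which TRBV13 is a usual partner, were left out of the other clonotypes, to 1.32 points for TRAJ26 and 1.82 for TRAJ21. Other changes of sign, by counting cells or leaving out 1 library, are listed in the closing section.

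Some alpha loops recurred from library to library. Of 115 alpha CDR3 amino acid sequences with TRAJ26, 14 occurred in 2 or more libraries, 8 of them through clonotypes with different receptors, and of 81 with TRAJ21 there were 7, of which 6. By such distinct clonotypes this was 6.96% of the TRAJ26, 7.41% of the TRAJ21 and 5.82% of the other alpha sequences. The widest spread was 3 libraries, for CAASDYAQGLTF and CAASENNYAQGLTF with TRAJ26 and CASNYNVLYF with TRAJ21.

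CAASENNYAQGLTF was made by 4 clonotypes from 3 TRAV segments, with 3 nucleotide sequences and 4 beta chains, in both genotypes. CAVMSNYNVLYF was made by 3 clonotypes of both genotypes with 3 TRAV segments, 3 nucleotide sequences and 3 beta chains. The junctions are printed to show how different bases gave the same residues.

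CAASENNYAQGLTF, TRAV14-1, 5xFADTg parenchyma 1 and NonTg parenchyma 1: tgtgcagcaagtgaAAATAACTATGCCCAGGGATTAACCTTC
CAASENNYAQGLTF, TRAV5-4, 5xFADTg parenchyma 2: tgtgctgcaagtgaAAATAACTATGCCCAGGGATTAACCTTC
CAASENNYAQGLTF, TRAV7-4, NonTg parenchyma 1: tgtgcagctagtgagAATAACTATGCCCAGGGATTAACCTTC
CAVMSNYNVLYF, TRAV7N-6, 5xFADTg parenchyma 2: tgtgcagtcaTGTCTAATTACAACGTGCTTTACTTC
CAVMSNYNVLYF, TRAV7-1, 5xFADTg parenchyma 2: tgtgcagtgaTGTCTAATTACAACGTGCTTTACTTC
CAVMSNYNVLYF, TRAV7-5, NonTg parenchyma 1: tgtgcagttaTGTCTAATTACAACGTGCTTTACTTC

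In the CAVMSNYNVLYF junctions all 26 germline TRAJ21 bases are kept. Each of these 7 clonotypes had between 1 and 3 cells. The other TRAJ26 loops carried by distinct clonotypes in 2 libraries were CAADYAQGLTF, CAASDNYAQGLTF, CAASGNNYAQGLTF, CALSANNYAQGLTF, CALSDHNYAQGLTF and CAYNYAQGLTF, and the other TRAJ21 loops were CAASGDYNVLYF, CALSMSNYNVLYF, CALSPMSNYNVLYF and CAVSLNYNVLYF. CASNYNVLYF was made from TRAV3-1 by a clonotype of NonTg parenchyma 2 (4 cells) and NonTg meninges (5 cells) and from TRAV12-2 by 1 cell of 5xFADTg parenchyma 1.

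Some member clones were found in both tissues of a genotype. Of all member clones, defined by both nucleotide sequences, 9 were found in 2 libraries, 7 with TRAJ26 and 2 with TRAJ21, and each pair was a meninges and a parenchyma library of the same genotype. No member clone was in both genotypes or in both parenchyma libraries of a genotype, and of 2781 clones with other TRAJ segments 1 and 0 were. In the meninges 7 of 29 TRAJ26 clonotypes (24.1%, exact 95% interval 10.3% to 43.5%), 2 of 13 TRAJ21 clonotypes (15.4%, 1.92% to 45.4%) and 101 of 570 others (17.7%, 14.7% to 21.1%) were also found in parenchyma. These intervals overlap, and no difference between the segments was detectable at this depth. Whether the libraries of a pair share animals is not given by the labels.

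The shared clones differed in size. The TRAJ26 clones held 34 and 6, 10 and 4, 5 and 2, 2 and 1 and 1 and 1 cells in NonTg parenchyma and meninges, and 4 and 4 and 1 and 1 cells in 5xFADTg. The TRAJ21 clones held 4 and 5 cells in NonTg and 8 and 1 cells in 5xFADTg. The shared clonotypes made up 14 of 22 TRAJ26 cells in NonTg meninges and 5 of 20 in 5xFADTg meninges. These counts were 5 of 9 and 1 of 8 for TRAJ21, and 102 of 318 and 72 of 342 for other segments.

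The study sampled both genotypes to compare the immune cells of plaque-bearing and control brains. In parenchyma, TRAJ26 made up 4.79% and 3.79% of NonTg and 3.65% and 4.59% of 5xFADTg clonotypes, and the groups overlapped. edgeR's quasi-likelihood test on clonotype counts, over all V and J segments, gave a log2 fold change of -0.07 (SE 0.25, adjusted p = 0.962) for 5xFADTg against NonTg. TRAJ21 made up 1.98% and 3.79% of NonTg and 3.65% and 3.06% of 5xFADTg clonotypes, also overlapping, with a log2 fold change of 0.27 (SE 0.34, adjusted p = 0.949). The SE given with edgeR values is the absolute log2 fold change divided by the square root of the F statistic. By DESeq2 the SE was larger, 0.49 for TRAJ26 and 0.58 for TRAJ21. Of the 118 segments tested 0 (0%) were called at an adjusted p under 0.05, 6 had an unadjusted p below 0.05, and by DESeq2 0 were called and 0 had such a p. Of the 43 TRAJ segments 0 were called, with 3 unadjusted, and their median log2 fold change was 0.07 beside 0.04 over all segments.

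The sign of neither genotype difference was fixed. For TRAJ26 it turned positive without NonTg parenchyma 1 (0.13) or without 5xFADTg parenchyma 1 (0.08), and for TRAJ21 it turned negative without NonTg parenchyma 1 (-0.18). Counted by cells in place of clonotypes, the log2 differences were 0.20 for TRAJ26 and 1.04 for TRAJ21, with edgeR adjusted p of 0.913 and 0.616, where the 71-cell, 60-cell and 38-cell clonotypes all lie on the 5xFADTg side.

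Between the tissues, with genotype as a covariate, the log2 fold change of meninges against parenchyma was 0.16 (SE 0.27, edgeR adjusted p = 0.953) for TRAJ26 and -0.52 (SE 0.40, adjusted p = 0.953) for TRAJ21. The DESeq2 SE was again larger, 0.41 for TRAJ26 and 0.60 for TRAJ21. TRAJ26 was 4.55% and 4.91% of meningeal clonotypes, inside or just above the parenchymal range of 3.65% to 4.79%. Of the 120 segments tested 0 (0%) were called, 7 had an unadjusted p below 0.05, and by DESeq2 0 were called and 2 had such a p. Of the 43 TRAJ segments 0 were called, with 4 unadjusted, and their median log2 fold change was -0.01, equal to that of all segments at this rounding. No difference of the tissue contrast between genotypes was called by edgeR's interaction test, with log2 values of 0.18 (SE 0.51) for TRAJ26 and 0.21 (SE 0.86) for TRAJ21 and adjusted p of 0.981 for both. With 1 meninges library per genotype, the spread in the interaction test comes from the parenchyma libraries alone, and these tests can show large differences only.

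Expanded clonotypes of both segments were fewer in the smaller meninges libraries. Expanded clonotypes were 25 of 106 TRAJ26 clonotypes in parenchyma and 5 of 29 in meninges, and 20 of 77 and 1 of 13 with TRAJ21. Over all clonotypes 14.0% to 16.7% were expanded in the parenchyma libraries and 5.52% and 10.1% in the meninges libraries, which held 349 and 370 paired cells against 766 to 1453, so tissue and number of cells cannot be told apart here.

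By share of clonotypes over the 6 libraries, the segments most like TRAJ26 were TRAJ31 (Pearson r = 0.67, Spearman rho = 0.60), TRAJ18 (0.63 and 0.54) and TRAJ56 (0.62 and 0.49), out of 42 compared. Those most like TRAJ21 were TRAJ11 (0.95 and 0.94), TRAJ23 (0.77 and 0.94) and TRAJ22 (0.69 and 0.54), and TRAJ22 is a neighbour of TRAJ21 in the genome. The shares of TRAJ26 and TRAJ21 themselves had r = -0.81 and rho = -0.54. These are descriptions over 6 points that share their denominators, with no test.

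Beta chain UMIs of member and other cells lay in the same range, and shares with an additional alpha chain are given beside them. Over the 6 libraries, median beta UMIs were 8 to 9.5 in TRAJ26 cells, 7 to 9.5 in TRAJ21 cells and 7 to 9 in the others. An additional alpha chain was listed in 5.28% of TRAJ26, 3.45% of TRAJ21 and 9.42% of other paired cells. Here cells are assigned by their main alpha chain. By library these shares ran from 1.92% to 13.6%, from 0% to 12.5% and from 7.89% to 11.6%. Cells of 1 clone are not independent draws, and this was not tested.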

How the data were processed

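The data are 6 Chromium Single Cell Immune Profiling v2 receptor libraries, and the gene expression libraries of the same tissues are not analysed here. The deposited contig lists give raw counts of reads and UMIs per contig, with no normalization, per the file headers. The submitters' processing notes name Cell Ranger 6.0 and mm10, and any filter before deposit is "not given in the sources used here". Doublets were treated only by dropping cells with 2 or more productive TRB, and a cell needed 1 productive TRB and 1 or more TRA. Clonotypes were defined within a library by the pair of CDR3 nucleotide sequences (the TRB and the TRA with most UMIs).

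Segment use, in clonotypes, was tested with edgeR 4.0.16 under R 4.3.3 (with limma 3.58.1). Library size was the clonotype number, segments needed 10 clonotypes, D and N copies of a TRAV were summed, and Benjamini-Hochberg adjustment covered all segments. The fits were tested on simulated counts, and DESeq2 1.42.0 was an alternative. CDR3 and partner measures, 10 in all, were compared within libraries by two-sided exact sign-flip permutation tests (smallest p 0.03125). Intervals are exact Clopper-Pearson 95% intervals, and limits beside a 0 are 3 counts of the total. Chains were enriched by PCR, so both cover counting error only. Intervals pooled over libraries count a clone once in each library that held it. Germline sequences are from GRCm38 with GENCODE M21. Other tools were Python 3.11.15 with scipy 1.17.1, pandas 2.3.3, matplotlib 3.10.9 and numpy 2.4.6.

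Members, lists and tests were chosen with earlier results of these data known. Named were the 5 TRAV and 5 TRBV partners with most clonotypes, clonotypes of 10 or more cells, among the 3 largest of a library or found in 2 libraries, alpha sequences of 2 or more libraries, neighbours in the order of expanded share and the 3 segments of most similar share. Where many qualified they were counted, and the smallest were not named.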

Additional observations from a re-analysis of the deposited data

Results flagged for a closer look

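TRAJ26 and TRAJ21 also occurred in contigs outside the clonotypes. Nonproductive alpha contigs numbered 97 with TRAJ26 and 59 with TRAJ21 of 1922, 5.05% and 3.07%. Counted once per deposited clonotype, V and J segment, these were 5.28% and 3.91% of nonproductive alpha contigs, against 4.54% and 3.23% of distinct productive alpha sequences. As an additional alpha chain of a paired cell TRAJ26 was listed 18 times and TRAJ21 10 times. Cells without a productive beta chain held 14 contigs of each segment. Cells with 2 or more productive beta chains held 24 with TRAJ26 and 17 with TRAJ21. No library stood apart from the other 5 in the shares of clonotypes and cells tested by the spacing of the 6 values. A rule on 6 values can find wide gaps only, so this does not show that the libraries are alike.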

How the results depend on the processing

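The edgeR log2 differences of both segments between genotypes changed sign in 5 cases: TRAJ26 with cells in place of clonotypes (0.20) and without NonTg parenchyma 1 or 5xFADTg parenchyma 1, and TRAJ21 with every productive alpha contig (-0.016) and without NonTg parenchyma 1. Leaving out 1 library gave -0.25 to 0.13 for TRAJ26 and -0.18 to 0.75 for TRAJ21, and in the tissue comparison 0.06 to 0.25 and -0.70 to -0.35. The count of called segments stayed at 0 to 0 without any 1 library. It was 1 in the genotype comparison with cells (TRAV6-5) and 2 in the tissue comparison with at least 2 UMIs per chain (TRAJ18 and TRAV11), and neither segment studied here was called. With the replicate number as a block, the genotype values were -0.07 for TRAJ26 and 0.25 for TRAJ21 and 0 segments were called. Same-numbered libraries share only a number, and the correlation of their deviations was 0.08 over 118 segments.

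With cells, the partner differences turned to 9.37 (TRAJ26, TRBJ1), 0.865 (TRAJ26, TRBV13), 9.16 (TRAJ21, TRBV13) and -1.64 points (TRAJ21, TRAV16 to TRAV21), and without iNKT-like receptors the TRBV13 differences were 1.32 and 1.82. Leaving out 1 library gave, for TRAJ26, -2.44 to 0.46 (TRBJ1), -2.54 to 0.36 (TRBV13), 1.35 to 2.76 (TRAV16 to TRAV21), -0.39 to -0.28 (alpha length) and 0.009 to 0.11 (beta length). For TRAJ21 it gave 0.21 to 5.41, -3.73 to 0.88, -0.23 to 3.74, -0.98 to -0.71 and 0.17 to 0.33. Without 1 library, the expanded minus 1-cell differences ranged from 3.56 to 4.69 points for TRAJ26 and 0.87 to 2.72 for TRAJ21. With expansion from 3 cells they were 5.27 and 3.45, and with the alpha chain alone 2.73 and 0.46. The causes were not tested. Of 187 alternative values, 167 kept direction and side of the threshold. Many could not change side. Sign-flip tests without 1 library have a smallest p of 0.0625, above the threshold of 0.05. The expanded minus 1-cell differences were set against no threshold. The clonotypes per library limit all shares.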
